A study of Mus musculus with 36 samples.

Results

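The unfolded protein response and the heat shock response were examined through 42 genes in kidneys of mice with and without tubular deletion of the clock gene Bmal1, with and without streptozotocin diabetes. The members were the genes whose Ensembl identifier carries 1 of 42 fixed symbols, and all 42 were found among the 53715 genes counted in each library. They comprised 14 chaperones and folding enzymes of the endoplasmic reticulum (ER), 4 genes of ER-associated degradation, 3 ER stress sensors, 7 transcription factors and targets of the ATF4 and CHOP branch, 11 cytosolic heat shock proteins and cochaperones, 2 mitochondrial chaperonins and the heat shock factor gene Hsf1. The first 3 sets are called ER-resident members below, 21 genes in all. All 42 passed the filter on low counts.

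Poly(A) RNA of whole kidneys was sequenced in 4 groups of 9 mice, 36 libraries in all. Mice called cKOt (Bmal1 lox/lox/Pax8-rtTA/LC1) carried floxed Bmal1 with a doxycycline-inducible Cre driven in the renal tubule through the Pax8 promoter, so cells outside the tubule keep the gene. The control mice were Bmal1lox/lox littermates. Mice of both genotypes drank doxycycline at 2 mg/ml for 2 weeks from 8 weeks of age. Beginning 1 week later, part of the mice received streptozotocin (STZ), which destroys pancreatic beta cells, intraperitoneally at 50 mg/kg on 5 successive days, and the rest received phosphate-buffered saline (PBS). Tissue was taken 8 weeks after injections ended, at zeitgeber time 9 (hours from lights on). The groups are STZ-cKOt, STZ-control, PBS-cKOt and PBS-control.

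The unfolded protein response adjusts the folding capacity of the ER to its load. Its sensors IRE1 (gene Ern1), PERK (Eif2ak3) and ATF6 act through the transcription factors XBP1, ATF4 and cleaved ATF6, which raise ER chaperones and degradation factors. The branch of ATF4 and CHOP (Ddit3) raises genes of amino acid supply, through ATF4, and of recovery of translation. The heat shock response is its counterpart in the cytosol, where HSF1 drives HSP70, HSP90, their cochaperones and small heat shock proteins. The renal tubule makes and recycles large amounts of membrane transporters and receptors, which pass through the ER.

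Promoter windows from RefSeq (GRCm38.p6), reaching from 250 bases before to 50 bases after each transcription start, were available for 35 of the 42 members, in 40 windows. They were searched on both strands for elements through which these responses act. The ER stress response element ERSE, which is CCAAT, 9 bases of any kind and CCACG, was in 8 of the 40 member windows (20.0%) and in 0.119% of all 32851 windows. It lay in Hspa5, Hsp90b1, Canx, Calr, Creld2, Dnajc3, Pdia6 and Syvn1. The compact form ERSE-II, which is ATTGG, 1 base and CCACG, was in 2 (5.0%), those of Herpud1 and Dnajb11, against 0.0365% of all windows. Every ERSE and ERSE-II contains a CCAAT box, which on its own was in 70.0% of member windows and 37.4% of all windows. The composite element bound by ATF4 with C/EBP partners, searched as TGATG, 1 base and AA, was in 4 of the 40, those of Asns, Chac1, Herpud1 and Trib3, against 3.97% of all windows. A heat shock element of 3 alternating TTC and GAA units spaced by 2 bases was likewise in 4 of the 40, of Hsph1, Hspd1 and Hspe1, against 0.603%. Hspd1 and Hspe1 are divergent neighbours and share the same element. The E-box CACGTG, the class of site that BMAL1 binds with CLOCK, was in 5 windows (12.5%) of Calr, Dnajb9, Hspd1 and Hsph1, against 7.15%. A match describes letters in the window and does not show binding.

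Stretches of 8 of these promoters follow, because they carry the elements of the genes on which the results below turn. They are written 5′ to 3′ on the strand of the gene, and capitals mark the element. In Herpud1 the first run of capitals is the ATF4 composite element on the opposite strand and the second is ERSE-II. In Hspa5, Hsp90b1 and Canx the capitals are ERSE, present in a forward and a reverse copy in Hsp90b1. In Dnajb9 and Hsph1 they are the E-box, in Asns the ATF4 composite element, and in Hspd1 overlapping heat shock elements.
Herpud1, chr8:94386304-94386393, plus strand: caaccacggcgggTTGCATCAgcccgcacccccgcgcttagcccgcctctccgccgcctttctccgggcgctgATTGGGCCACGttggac
Hspa5, chr2:34772005-34772054, plus strand: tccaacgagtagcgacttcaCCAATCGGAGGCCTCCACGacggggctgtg
Hsp90b1, chr10:86705520-86705664, minus strand: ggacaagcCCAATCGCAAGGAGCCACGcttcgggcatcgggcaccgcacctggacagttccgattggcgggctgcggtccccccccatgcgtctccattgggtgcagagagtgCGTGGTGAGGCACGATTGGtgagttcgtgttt
Canx, chr11:50325784-50325833, minus strand: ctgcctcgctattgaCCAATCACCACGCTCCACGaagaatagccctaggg
Dnajb9, chr12:44210154-44210193, minus strand: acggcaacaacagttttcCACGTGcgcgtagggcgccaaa
Hsph1, chr5:149636316-149636375, minus strand: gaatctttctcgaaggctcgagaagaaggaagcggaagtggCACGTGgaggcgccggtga
Asns, chr6:7693210-7693269, minus strand: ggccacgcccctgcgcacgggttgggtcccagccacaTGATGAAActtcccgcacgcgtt
Hspd1, chr1:55088043-55088092, minus strand: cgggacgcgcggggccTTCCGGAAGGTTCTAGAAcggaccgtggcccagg

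Libraries held 16.9 to 22.3 M reads assigned to genes, and levels are given as counts per M assigned reads (CPM). The 5 libraries named here stood apart. Arntl, the gene symbol of Bmal1, stood at 13.4 CPM in the library labelled STZ-control 2, where the other STZ-control libraries had 1.18 to 2.64 and the 18 cKOt libraries 12.9 to 17.4. The count spans the whole gene and so does not show the deletion itself, but on this measure and on the clock gene Ciart the library went against its label. Some other measures placed it with the controls. On the first principal component it stood at −11.7, where controls reached at most −6.01 and cKOt libraries began at 8.28, and its Hspb8 level was 15.4 CPM, where cKOt libraries had at most 5.33. The mitochondrial unfoldase gene Clpx had at most 178 CPM in any STZ-control library, against at least 296.5 in STZ-cKOt libraries. Herpud1 went the other way, with 209 CPM in STZ-control 2. The other STZ-control libraries had 271 to 351 CPM of Herpud1 and STZ-cKOt libraries 159 to 243. STZ-control 7 and 8 and PBS-cKOt 1 and 3 lay apart on the second principal component. For each gene, log2 CPM was taken as the deviation from the gene's mean over the 36 libraries. In these libraries that deviation fell most steeply with log2 exon length (slopes of −0.138, −0.0752, −0.160 and −0.0673). All 5 were kept, and member calls that change without STZ-control 2, or without the other 4 together, are given both ways. Whether the mice of a group were housed or bred together is not stated, and the whole kidney was sampled, so fewer cells of a type and less RNA per cell cannot be told apart in any difference below.

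**Figure D1:**
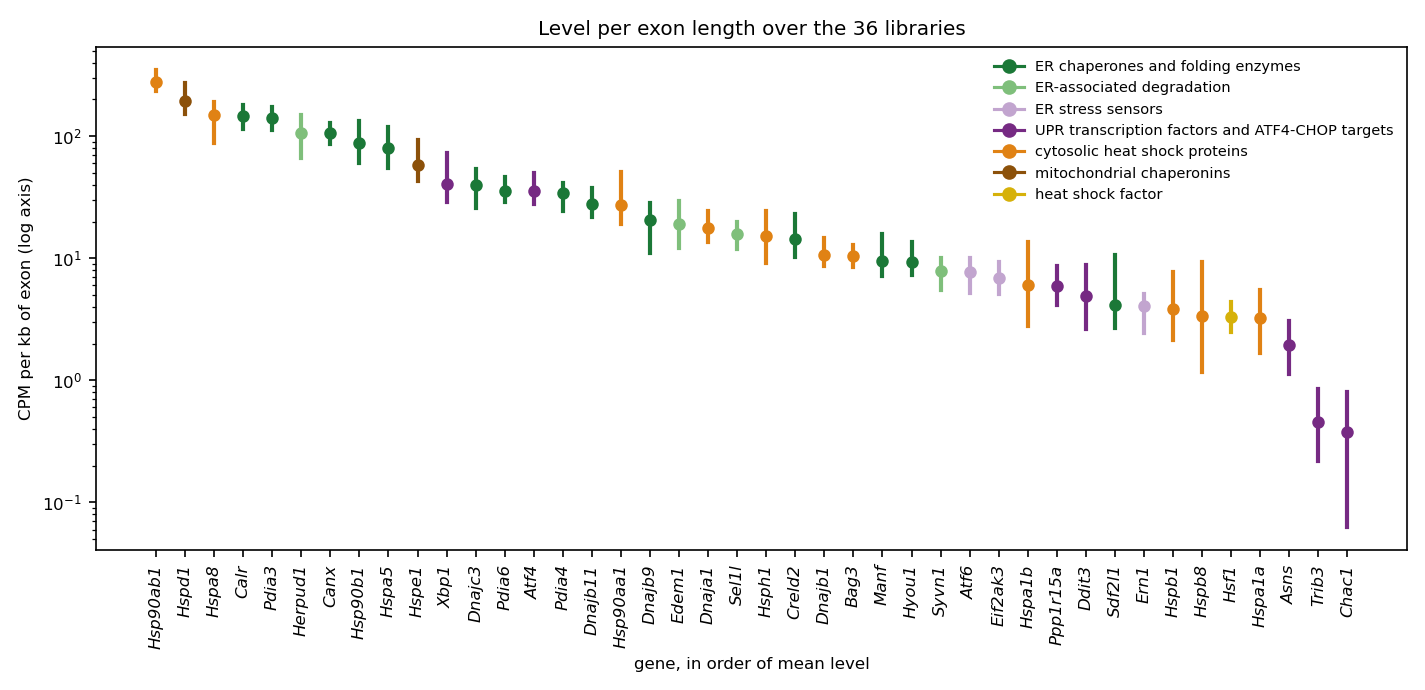
Mean level of each member over the 36 libraries in CPM per kilobase of exon, on a log axis, with vertical lines from the lowest to the highest library and colours by role. Hsp90ab1 stood highest at 280.4 CPM per kb, and Trib3 and Chac1 lowest at 0.455 and 0.379.

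Per length of exon, constitutively expressed chaperones of all 3 compartments stood highest, as the plot of levels by gene shows. The cytosolic chaperone gene Hsp90ab1 averaged 280.4 CPM per kb over the 36 libraries, the mitochondrial chaperonin gene Hspd1 193 and the constitutive HSP70 gene Hspa8 149. The ER lectin chaperone gene Calr and the disulfide isomerase gene Pdia3 followed at 146 and 141 CPM per kb. The ranges over libraries of Hspa8, Calr and Pdia3 overlapped, so their order is not resolved. The degradation gene Herpud1, at 106 CPM per kb, stood level with the membrane chaperone gene Canx at 106, and above the ER HSP70 gene Hspa5 at 79.5 and the ER HSP90 gene Hsp90b1 at 88.7. The 3 sensors stood between 4.10 CPM per kb for Ern1 and 7.65 for Atf6. The stress-inducible HSP70 genes Hspa1a and Hspa1b stood at 3.27 and 6.07 CPM per kb. The ATF4 and CHOP targets Asns, Trib3 and Chac1 were the lowest of the 42, with 1.95, 0.455 and 0.379 CPM per kb, whereas Xbp1 and Atf4 of the same set stood at 40.4 and 35.3. Variation between mice of the same group was smallest for Hsp90ab1 and Canx, with coefficients of variation of 7.58% and 7.73%. It was largest for Hspa1b (38.7%), Chac1 (37.3%), Sdf2l1 (31.6%) and Hspa1a (30.3%).

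Multiply mapping reads were left out of the counts, which bears on the cytosolic and mitochondrial members more than on the ER members. Of the 50-base windows of its transcript, Hspa8 shared 73.2% with other genes, Hspb1 51.6%, Hsp90aa1 58.5%, Hspd1 44.8%, Hspe1 36.1% and Dnaja1 18.7%. Hspa1a and Hspa1b shared 60.3% and 62.3%, largely with each other. The counts of these 8 genes are therefore uncertain as levels. The symbol Ddit3 is also carried by a second identifier that lies inside the first and had 0 reads in all libraries, and the first was used.

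**Figure D2:**
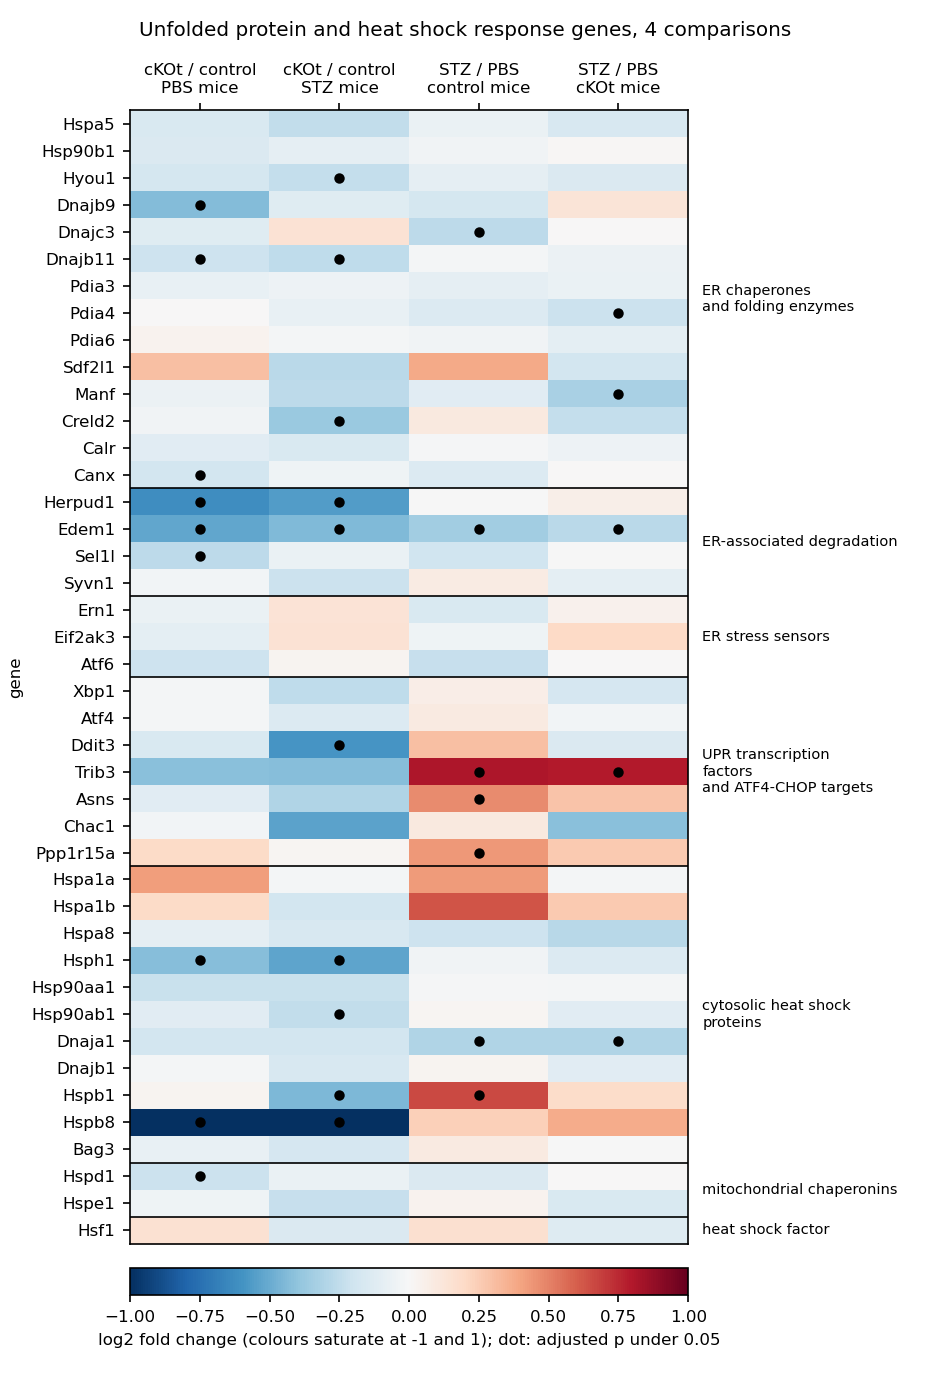
Log2 fold change of the 42 members (rows, grouped by role) in 4 comparisons (columns), with blue for lower and red for higher in the group named first, colours saturating at −1 and 1. Dots mark an adjusted p under 0.05 by edgeR; in the 2 genotype columns every dot lies on a blue cell, 9 in PBS mice and 10 in STZ mice.

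Deletion of Bmal1 in PBS mice was accompanied by lower mRNA of 9 members and higher mRNA of 0, as the heat map of fold changes shows. Of all 15637 genes tested, 12.5% were called lower and 10.9% higher in this comparison. The 9 were the degradation genes Herpud1, Edem1 and Sel1l, the ER chaperone genes Dnajb9, Dnajb11 and Canx, the cytosolic Hspb8 and Hsph1 and the mitochondrial Hspd1. The 4 genes of ER-associated degradation had 3 lower, the 14 ER chaperones and folding enzymes 3, the 11 cytosolic members 2 and the 2 mitochondrial chaperonins 1, while the 3 sensors, the 7 transcription factors and targets and Hsf1 had 0. Members were counted at an adjusted p under 0.05 in edgeR's quasi-likelihood test, with Benjamini-Hochberg adjustment over all tested genes. The count of 0 higher was also given by DESeq2 and by limma voom, which called 9.58% and 12.6% of the genes they tested higher. At an unadjusted p under 0.05, 1 member, Hspa1a, was higher and 14 lower. Of all 15637 tested genes, 5493 passed that threshold in either direction, so this count is not shown to be particular to the members. The median log2 fold change of the 42 members was −0.10, beside 0.00236 over all tested genes.

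Herpud1 encodes an ER membrane protein of the degradation complex (ENSMUSG00000031770, chr8:94386438-94395377, GRCm38). It had 156, 190.2 and 224 CPM (lowest, median and highest library) in PBS-cKOt kidneys, against 276, 294 and 324 CPM in PBS-control kidneys. The groups did not overlap, and the log2 fold change was −0.62 ± 0.08 (± SE; adjusted p = 4.67e-08). In STZ mice it had 159, 199 and 243 CPM in STZ-cKOt kidneys, against 209, 309.9 and 351 in STZ-control kidneys, a log2 fold change of −0.56 ± 0.08 (adjusted p = 4.21e-07). The lowest STZ-control value, 209 CPM, was that of the library labelled STZ-control 2, and 6 of 9 STZ-cKOt libraries lay below it. STZ itself was not accompanied by a called change of Herpud1 in either genotype (−0.00 ± 0.08 in control and 0.06 ± 0.08 in cKOt mice).

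Edem1 encodes a lectin-like factor that directs misfolded glycoproteins to degradation (ENSMUSG00000030104, chr6:108828641-108859356). It had 89.1, 113 and 135 CPM in PBS-cKOt kidneys, against 148, 154 and 192 CPM in PBS-control kidneys, again with no overlap (−0.52 ± 0.08; adjusted p = 1.16e-06). In STZ mice it had 78.6, 96.4 and 104 CPM in STZ-cKOt kidneys, against 93.0, 133 and 146 in STZ-control kidneys (−0.44 ± 0.08; adjusted p = 2.41e-05). Among the 42 members it was the 1 called in all 4 pairwise comparisons, each time lower in the cKOt or STZ group. The STZ difference was −0.35 ± 0.07 in control mice (adjusted p = 0.00182), where each STZ-control library lay below each PBS-control library. It was −0.27 ± 0.08 in cKOt mice (adjusted p = 0.0153). The 2 lowest STZ-control libraries were numbers 7 and 8. Without the 4 libraries apart on the second component the fold changes kept their calls.

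Sel1l, the scaffold of the HRD1 ubiquitin ligase, and Syvn1, the ligase itself, stood beside them. Sel1l had 102, 126 and 149 CPM in PBS-cKOt kidneys, against 142, 151 and 170.5 in PBS-control kidneys (−0.26 ± 0.07; adjusted p = 0.00537), and 6 of 9 PBS-cKOt libraries lay below all controls. It was not called in STZ mice (−0.06 ± 0.07). Between STZ-control and PBS-control it was not called (−0.20 ± 0.07; adjusted p = 0.0567), but was without the library labelled STZ-control 2 (−0.22) and with the replicate block (−0.20). Syvn1 was called in no comparison by edgeR, with −0.03 ± 0.08 in PBS and −0.22 ± 0.08 in STZ mice (adjusted p = 0.052). The difference in STZ mice was called in 2 of 9 alternative settings, a filter at a mean of 1 CPM and the replicate block.

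**Figure D3:**
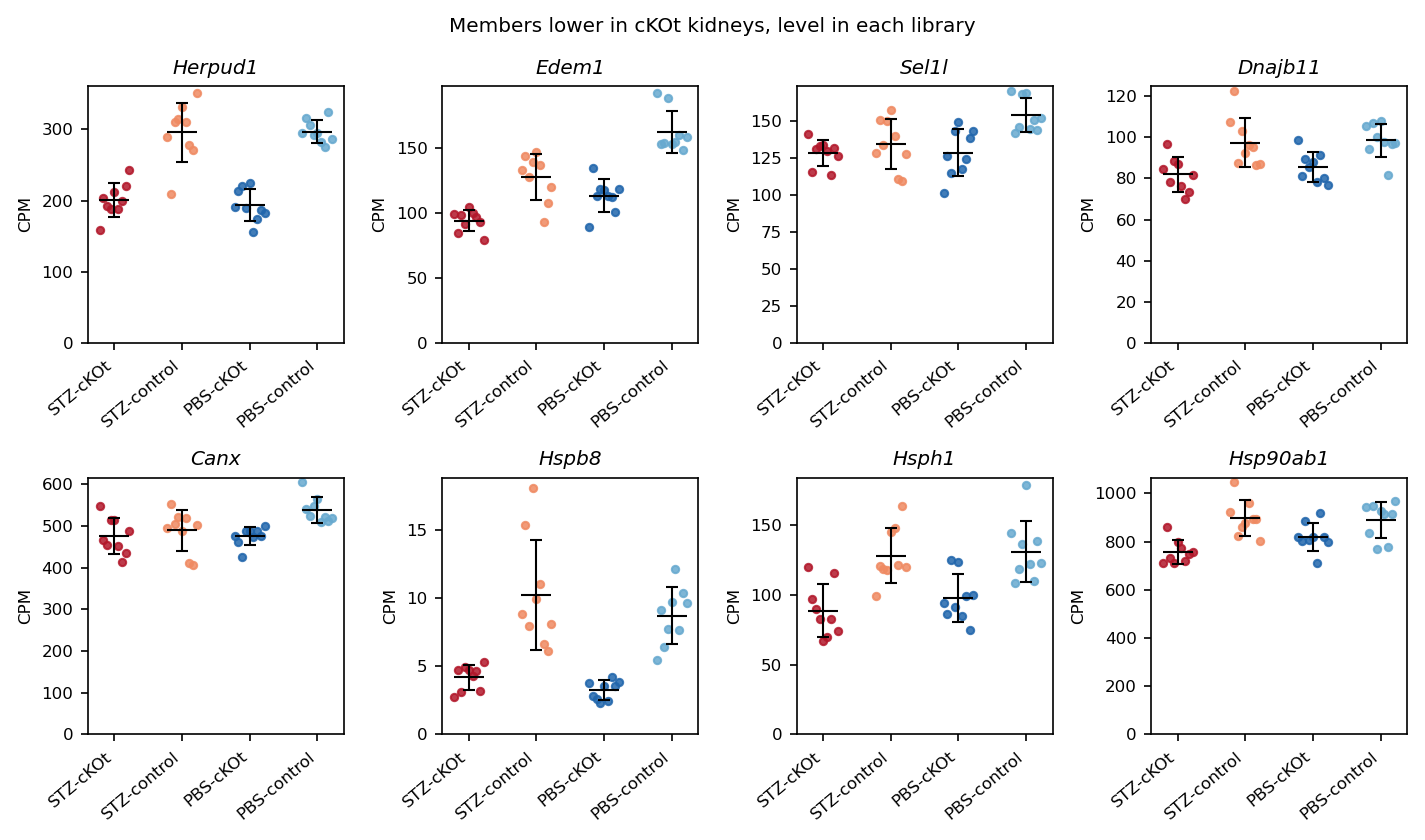
CPM of 8 members in each library (points) by group, with the mean and SD as bars, n = 9 per group; axes start at 0. Hspb8 separated the genotypes in both treatments, with cKOt libraries at no more than 5.33 CPM and control libraries at 5.46 or more.

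Among ER chaperones, the leading members showed small differences that did not pass the test. Hspa5, which encodes BiP, the ER HSP70 that also holds the sensors inactive, had 233, 289.9 and 364 CPM in STZ-cKOt, 281, 332 and 499.6 in STZ-control, 267, 326 and 403 in PBS-cKOt and 304, 355 and 454 in PBS-control kidneys. All 4 groups overlapped. The log2 fold changes of cKOt over control were −0.15 ± 0.09 in PBS mice (adjusted p = 0.244) and −0.24 ± 0.09 in STZ mice (adjusted p = 0.0557). The second lay close to the threshold and was called in 4 of 9 alternative settings, among them limma voom (−0.30) and the fit without the 4 libraries apart on the second component (−0.29). Without the library labelled STZ-control 2 it was −0.17 and not called.

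Hsp90b1, the ER HSP90 gene, had 246, 341 and 416 CPM in STZ-cKOt, 254, 354 and 542 in STZ-control, 289, 347 and 373 in PBS-cKOt and 326, 362 and 452 in PBS-control kidneys. The groups overlapped throughout, and no comparison was called, with log2 fold changes of cKOt over control of −0.14 ± 0.10 in PBS and −0.09 ± 0.10 in STZ mice. For both genes the highest STZ-control library was number 2. Calr, Pdia3, Pdia6 and Sdf2l1, further folding factors of the ER lumen, were likewise called in no comparison. Calr was lower in STZ-cKOt than in STZ-control kidneys with limma voom (adjusted p = 0.0395), 1 of 9 alternative settings.

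Dnajb9, a J-domain cochaperone of BiP, had 35.0, 45.3 and 52.4 CPM in PBS-cKOt kidneys, against 47.9, 59.5 and 72.6 in PBS-control kidneys (−0.43 ± 0.11; adjusted p = 0.00449), with 7 of 9 below all controls. In STZ mice it had 39.9, 51.2 and 55.6 CPM in STZ-cKOt kidneys, against 28.2, 57.8 and 67.2 in STZ-control kidneys, and was not called (−0.12 ± 0.11; adjusted p = 0.491). The 2 lowest STZ-control libraries were numbers 7 and 8, at 28.2 and 34.8 CPM, and without the 4 libraries apart on the second component the difference was −0.28 and was called. Its promoter stretch above holds the E-box, as does that of Hsph1. The E-box was also in windows of Hspd1 and of Calr, which edgeR called in no comparison. It was in no window of Herpud1, Edem1 or Hspb8, and a role of the E-box in these differences was not tested.

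Dnajb11, another BiP cochaperone and 1 of the 2 members with ERSE-II, had 76.8, 85.7 and 98.8 CPM in PBS-cKOt kidneys, against 81.8, 97.7 and 108 in PBS-control kidneys (−0.21 ± 0.07; adjusted p = 0.0204). In STZ mice it had 70.0, 81.8 and 96.9 CPM in STZ-cKOt kidneys, against 86.7, 95.2 and 122 in STZ-control kidneys (−0.25 ± 0.07; adjusted p = 0.00515). The groups overlapped in both treatments. Canx had 426, 476 and 499 CPM in PBS-cKOt kidneys, against 510.5, 524 and 607 in PBS-control kidneys; the groups did not overlap, though the difference was small (−0.18 ± 0.06; adjusted p = 0.0161). In STZ mice Canx overlapped and was not called (−0.04 ± 0.06). The calls of Canx, Dnajb11 and Hspd1 in PBS mice were lost when no filter on low counts was applied, so that 31610 genes were tested, and kept in the other settings tried.

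In STZ mice 10 members were lower in cKOt kidneys and 0 higher, where 10.1% of all tested genes were called lower and 9.52% higher. DESeq2 and limma voom also gave 0 higher, with 9 and 15 lower. Over all the genes they tested, they called 8.63% and 11.2% higher and 9.19% and 12.0% lower. At an unadjusted p under 0.05, 0 members were higher and 21 lower, where 4886 of all 15637 tested genes passed in either direction. The 10 were Herpud1, Edem1, Dnajb11, Hyou1 and Creld2 of the ER, Ddit3, and the cytosolic Hspb8, Hsph1, Hsp90ab1 and Hspb1. The 21 ER-resident members thus had 5 lower, after 6 in PBS mice, and the 11 cytosolic members 4, after 2 in PBS mice. In STZ mice limma voom called 8 ER-resident and 6 cytosolic members lower, and DESeq2 4 and 4. The median log2 fold change of the 42 members was −0.18, beside −0.00835 over all tested genes. Herpud1, Edem1, Dnajb11, Hspb8 and Hsph1 were lower in both treatments, which is 55.6% of the 9 and 50.0% of the 10. The comparisons share no library but concern the same deletion. The matching overlap over all tested genes is not given here, so this overlap is not shown to be particular to the members.

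Creld2, an ER-resident protein induced by ATF6, had 13.9, 16.9 and 19.5 CPM in STZ-cKOt kidneys, against 17.7, 20.2 and 31.6 in STZ-control kidneys (−0.37 ± 0.10; adjusted p = 0.00639). The highest of these was the library labelled STZ-control 2, and the call was kept without it. Hyou1, a large HSP70-related chaperone of the ER, was called by a small margin (−0.23 ± 0.09; adjusted p = 0.0477). Without the library labelled STZ-control 2, the highest of its group at 98.5 CPM, the difference was −0.16 and not called. The call was also lost with DESeq2, with no filter and in the fit to 2 groups. In PBS mice neither gene was called (−0.04 ± 0.10 for Creld2 and −0.18 ± 0.09 for Hyou1).

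Of the cytosolic members, Hspb8 showed the largest difference of the 42 in both genotype comparisons. It encodes a small heat shock protein that works with BAG3 in selective autophagy (ENSMUSG00000041548, chr5:116408491-116422864). It had 2.27, 3.57 and 4.23 CPM in PBS-cKOt kidneys, against 5.46, 9.15 and 12.2 in PBS-control kidneys. In STZ mice it had 2.76, 4.68 and 5.33 CPM in STZ-cKOt kidneys, against 6.14, 8.84 and 18.1 in STZ-control kidneys. The genotypes did not overlap in either treatment. The log2 fold changes were −1.42 ± 0.18 in PBS mice (adjusted p = 1.22e-07) and −1.29 ± 0.18 in STZ mice (adjusted p = 5.15e-07). Its partner Bag3 was called in no comparison, with −0.08 ± 0.07 and −0.17 ± 0.07. Hspb8 rested on 44 to 377 reads per library.

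Hsph1 encodes HSP105, a nucleotide exchange factor for HSP70 (ENSMUSG00000029657, chr5:149614287-149636376). It had 74.7, 94.1 and 125 CPM in PBS-cKOt kidneys, against 108, 123 and 179 in PBS-control kidneys (−0.42 ± 0.11; adjusted p = 0.00480). In STZ mice it had 67.02, 82.9 and 120.3 CPM in STZ-cKOt kidneys, against 99.0, 121 and 164 in STZ-control kidneys (−0.53 ± 0.11; adjusted p = 0.000534). In each treatment 7 of 9 cKOt libraries lay below all controls and the others overlapped them. Its promoter window holds both the E-box and the heat shock element.

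Hsp90ab1, the constitutive cytosolic HSP90 gene, had 712, 747 and 859.6 CPM in STZ-cKOt kidneys, against 803, 892 and 1049 in STZ-control kidneys (−0.25 ± 0.06; adjusted p = 0.000921), and 8 of 9 lay below all controls. In PBS mice the difference was −0.12 ± 0.06 and not called. Hspb1, which encodes the small heat shock protein HSP25, had 2.76, 3.74 and 5.08 CPM in STZ-cKOt kidneys, against 3.52, 5.29 and 7.97 in STZ-control kidneys (−0.45 ± 0.15; adjusted p = 0.0324). This call was lost without the library labelled STZ-control 2 (−0.43), without the 4 libraries apart on the second component (−0.33) and with the replicate block or no filter.

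The inducible HSP70 pair varied more between mice than between groups. Hspa1a had 6.53, 10.5 and 14.8 CPM in STZ-cKOt, 5.78, 9.66 and 16.3 in STZ-control, 6.38, 10.4 and 16.0 in PBS-cKOt and 4.93, 7.21 and 11.4 in PBS-control kidneys. Hspa1b had 9.97, 17.2 and 26.2 CPM in STZ-cKOt, 9.203, 20.4 and 38.0 in STZ-control, 7.84, 15.4 and 23.7 in PBS-cKOt and 8.32, 10.3 and 22.1 in PBS-control kidneys. All groups overlapped and neither gene was called; the nearest was Hspa1b between STZ and PBS in control mice (0.63 ± 0.25; adjusted p = 0.0876). The 2 highest STZ-control libraries for both genes were numbers 7 and 8.

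Hspa8 had 472, 545 and 639 CPM in STZ-cKOt, 379.6, 648 and 822 in STZ-control, 517, 667 and 798 in PBS-cKOt and 619.9, 736 and 780.3 in PBS-control kidneys. It was not called, with its lowest adjusted p, 0.0585, between STZ and PBS in cKOt mice (−0.28 ± 0.10). That difference was called in 4 of 9 alternative settings, DESeq2 (−0.28), limma voom (−0.29), the fit to 2 groups (−0.28) and without the library labelled STZ-control 2 (−0.28). Hsf1, the master factor of the heat shock response, had 17.6, 22.9 and 25.8 CPM in STZ-cKOt, 20.8, 24.2 and 31.1 in STZ-control, 22.5, 23.8 and 29.4 in PBS-cKOt and 19.5, 22.3 and 25.5 in PBS-control kidneys. All groups overlapped, and no comparison was called. The HSP40 gene Dnajb1 was not called either, nor was Hsp90aa1, the inducible HSP90 gene (−0.22 ± 0.11 in PBS and −0.23 ± 0.11 in STZ mice for cKOt over control). In STZ mice Hsp90aa1 was called with limma voom (−0.31) and without the 4 libraries apart on the second component (−0.34), while without the library labelled STZ-control 2 it was −0.09. In PBS mice it was called in the fit to 2 groups (−0.21). Hspd1, the mitochondrial HSP60 gene, was lower in PBS-cKOt kidneys (−0.21 ± 0.07; adjusted p = 0.0274), with 453, 484 and 519 CPM, against 478, 557 and 715 in PBS-control kidneys. Its partner and neighbour Hspe1 was not called (−0.04 ± 0.11).

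Of the 3 sensors and the factors Ddit3, Atf4 and Xbp1, Ddit3 was called in 1 comparison and the others in none. Ddit3, the gene of the proapoptotic factor CHOP, had 5.70, 7.00 and 8.89 CPM in STZ-cKOt kidneys, against 6.92, 9.56 and 15.2 in STZ-control kidneys (−0.59 ± 0.15; adjusted p = 0.00315). In PBS mice it had 4.54, 7.23 and 10.2 CPM in PBS-cKOt kidneys, against 6.47, 7.83 and 12.8 in PBS-control kidneys, and was not called (−0.15 ± 0.15). The treatments overlapped within each genotype, and the STZ difference was 0.30 ± 0.15 in control and −0.14 ± 0.15 in cKOt mice, neither called.

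Atf4 had 65.7, 82.1 and 91.1 CPM in STZ-cKOt, 75.5, 81.4 and 118 in STZ-control, 69.2, 80.6 and 99.4 in PBS-cKOt and 73.7, 84.7 and 93.9 in PBS-control kidneys. Xbp1 had 94.1, 115 and 155 CPM in STZ-cKOt, 104, 129 and 239 in STZ-control, 109, 123 and 179 in PBS-cKOt and 119.6, 133 and 151 in PBS-control kidneys. All groups overlapped for both, and the 239 CPM of Xbp1 came from STZ-control 7. Both factors are regulated largely after transcription, Atf4 by translation and Xbp1 by splicing of its mRNA, which gene counts do not read. The sensor genes Ern1, Eif2ak3 and Atf6 had log2 fold changes between −0.20 and −0.06 in PBS-cKOt kidneys and between 0.03 and 0.14 in STZ-cKOt kidneys relative to their controls.

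STZ in control mice was accompanied by higher mRNA of 4 members and lower mRNA of 3, where 6.34% of all tested genes were called higher and 5.93% lower. The 4 were Trib3, Asns and Ppp1r15a of the ATF4 and CHOP branch and the cytosolic Hspb1. The 3 lower were Edem1, Dnajc3 and Dnaja1. In cKOt mice 1 member, Trib3, was higher and 4 were lower, Edem1, Dnaja1, Manf and Pdia4, where 6% of all tested genes were called higher and 5.63% lower. The median log2 fold change of the members was −0.01 between STZ-control and PBS-control and −0.06 between STZ-cKOt and PBS-cKOt, beside 0.00497 and −0.00149 over all tested genes. The 21 ER-resident members had 0 higher in either genotype, also with DESeq2 and limma voom. At an unadjusted p under 0.05 they had 1 higher in each. Of all 15637 tested genes, 4166 in control and 3937 in cKOt mice passed that threshold in either direction. DESeq2 called 5.65% and 6.02% of the genes it tested higher, and limma voom 5.94% and 8.27%.

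**Figure D4:**
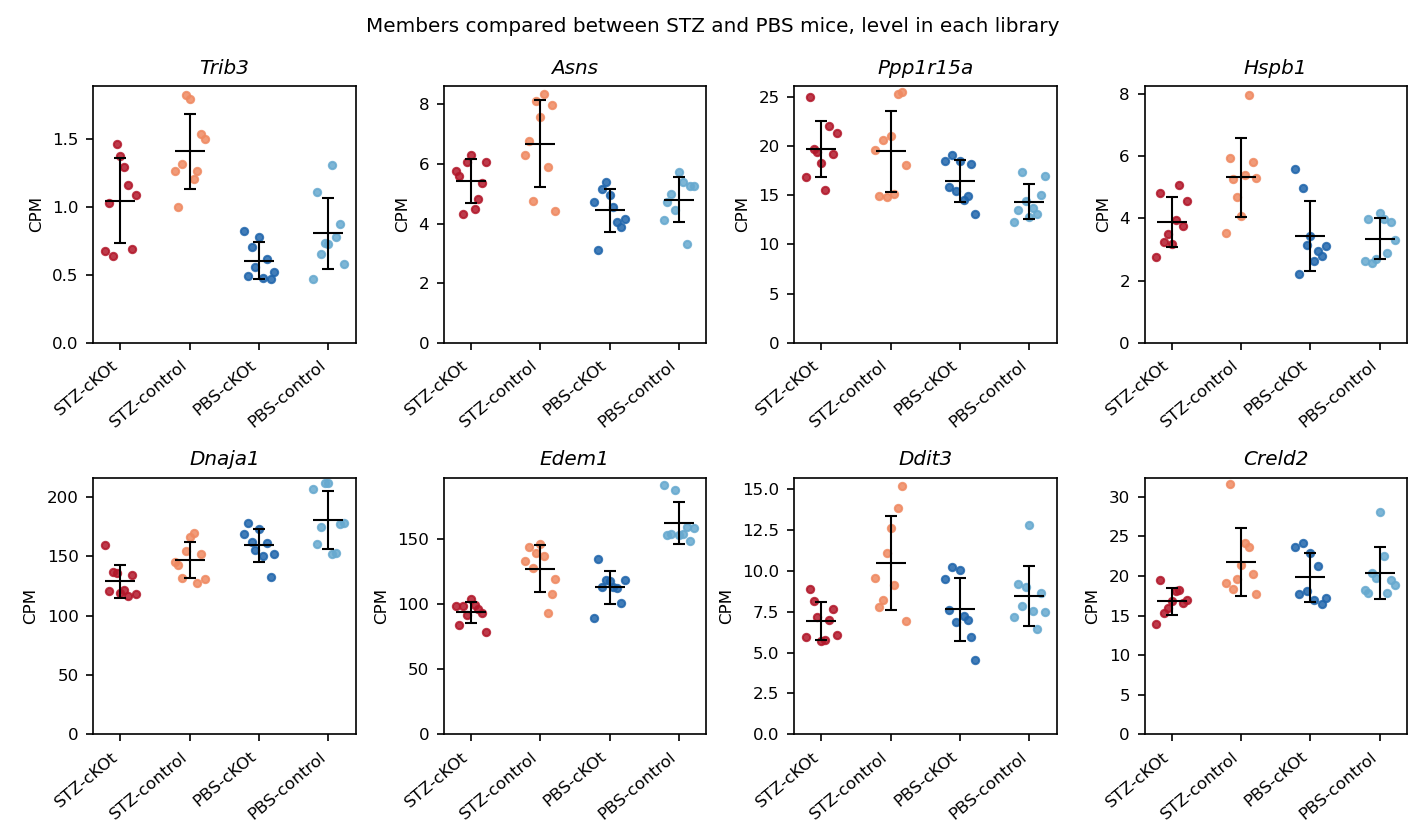
CPM of 8 members in each library (points) by group, with the mean and SD as bars, n = 9 per group; axes start at 0. Trib3 averaged 1.05 and 1.41 CPM in STZ-cKOt and STZ-control kidneys and 0.604 and 0.805 in PBS-cKOt and PBS-control kidneys.

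Trib3 encodes a pseudokinase that is induced by ATF4 and CHOP and restrains them (ENSMUSG00000032715, chr2:152337422-152344032). In control mice it had 0.997, 1.32 and 1.82 CPM in STZ-control kidneys, against 0.470, 0.733 and 1.31 in PBS-control kidneys (0.81 ± 0.18; adjusted p = 0.00210). In cKOt mice it had 0.638, 1.08 and 1.47 CPM in STZ-cKOt kidneys, against 0.467, 0.556 and 0.823 in PBS-cKOt kidneys (0.79 ± 0.19; adjusted p = 0.00408). Trib3 was not called between STZ-cKOt and STZ-control kidneys (−0.43 ± 0.17; adjusted p = 0.0723), except without the library labelled STZ-control 2 (−0.48). The STZ and PBS ranges overlapped, and each STZ library lay above the median of its PBS group. These levels rest on 8 to 38 reads per library, and a filter at a mean of 1 CPM removes the gene from the test.

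Asns, asparagine synthetase, carries the ATF4 composite element shown above. It had 4.41, 6.75 and 8.35 CPM in STZ-control kidneys, against 3.31, 4.98 and 5.75 in PBS-control kidneys (0.47 ± 0.12; adjusted p = 0.00660), and 7 of 9 STZ-control libraries lay above all PBS-control libraries. In cKOt mice the difference was 0.29 ± 0.12 and not called (adjusted p = 0.116). Ppp1r15a encodes GADD34, the phosphatase subunit that restores translation. It had 14.8, 19.6 and 25.4 CPM in STZ-control kidneys, against 12.3, 13.7 and 17.4 in PBS-control kidneys (0.44 ± 0.10; adjusted p = 0.00399). In cKOt mice it had 0.26 ± 0.10 and was not called, except with limma voom (0.28) and without the 4 libraries apart on the second component (0.33). Chac1, a further target of the branch, was called in no comparison and had 2 to 28 reads per library.

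Hspb1 had 3.52, 5.29 and 7.97 CPM in STZ-control kidneys, against 2.57, 3.32 and 4.19 in PBS-control kidneys (0.66 ± 0.16; adjusted p = 0.00409), and 7 of 9 STZ-control libraries lay above all PBS-control libraries. In cKOt mice the difference was 0.18 ± 0.16 and not called, except without the 4 libraries apart on the second component (0.42). Dnaja1, a J-domain cochaperone of cytosolic HSP70, had 128, 145 and 170.0 CPM in STZ-control kidneys, against 152, 177 and 212 in PBS-control kidneys (−0.30 ± 0.07; adjusted p = 0.00549). In cKOt mice it had 116, 122 and 159 CPM in STZ-cKOt kidneys, against 132, 161 and 178 in PBS-cKOt kidneys (−0.30 ± 0.07; adjusted p = 0.00462). In both genotypes 5 of 9 STZ libraries lay below all PBS libraries.

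The remaining calls were small. Dnajc3, the P58IPK cochaperone of BiP, was lower in STZ-control kidneys, with 132, 196 and 251 CPM, against 198, 220.5 and 276 in PBS-control kidneys (−0.26 ± 0.09; adjusted p = 0.0428). Its 2 lowest libraries were STZ-control 7 and 8, and without the 4 libraries apart on the second component it was −0.14 and not called. The call was also lost with limma voom (−0.18), with no filter and in the fit to 2 groups. Manf, a secreted ER stress protein, had 25.2, 28.3 and 32.0 CPM in STZ-cKOt kidneys, against 26.8, 32.4 and 55.4 in PBS-cKOt kidneys (−0.32 ± 0.10; adjusted p = 0.0326). It was −0.15 and not called without those 4 libraries, and the call was again lost with limma voom (−0.21), with no filter and in the fit to 2 groups. Between STZ-cKOt and STZ-control Manf was not called (−0.27 ± 0.10; adjusted p = 0.0637), but was without the 4 libraries (−0.27), with limma voom (−0.28) and in the fit to 2 groups (−0.26). Pdia4, an ER disulfide isomerase, had 63.9, 73.5 and 87.4 CPM in STZ-cKOt kidneys, against 72.5, 86.9 and 96.5 in PBS-cKOt kidneys (−0.21 ± 0.07; adjusted p = 0.0440), a call lost with no filter.

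The interaction, the STZ effect in cKOt minus that in control mice, was called for 0 of the 42 members in either direction, where 0% of all tested genes were called higher and 0.0448% lower. DESeq2 and limma voom also called 0 members. Of all 15637 tested genes, 1944 had an interaction at an unadjusted p under 0.05, in either direction. Among members at that threshold, Eif2ak3 and Dnajc3 had positive and Hsf1, Creld2, Sdf2l1, Hspb1 and Ddit3 negative interactions. Their adjusted p was at least 0.364 by edgeR, the value of Hsf1 (−0.29 ± 0.11). Genes called in 1 treatment or genotype and not in the other were therefore not shown to differ between them. Of the 42 members, 21 were called in at least 1 of the 4 pairwise comparisons and 21 in none. The matching share over all tested genes is not given here, so this count is not shown to be particular to the members.

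Other genes of the same pathways, from lists that hold no member, were set beside the members. Their counts, and those of the markers further below, stand beside these shares of all tested genes. With the deletion, 10.9% were called higher and 12.5% lower in PBS mice, and 9.52% and 10.1% in STZ mice. With STZ, 6.34% were called higher and 5.93% lower in control mice, and 6% and 5.63% in cKOt mice. At an unadjusted p under 0.05, 4166 of the 15637 in control and 3937 in cKOt mice passed in either direction. Of 26 further genes of ER folding, translocation and glycosylation, 3 were higher and 4 lower in PBS-cKOt than in PBS-control kidneys, and 2 were higher and 2 lower in STZ-cKOt than in STZ-control kidneys. Txndc11, a thioredoxin-domain protein of the ER, was lower in both (−0.36 ± 0.05 and −0.36 ± 0.05), as was the disulfide isomerase gene P4hb (−0.14 ± 0.04 and −0.15 ± 0.04). With STZ, 0 of the 26 were higher and 3 lower in each genotype, and 0 were higher at an unadjusted p under 0.05. Of 17 further genes of ER-associated degradation, 1 was higher and 4 lower with the deletion in PBS mice, and 0 were higher and 3 lower in STZ mice. Derl3, a derlin of the retrotranslocation channel, was lower in STZ-cKOt kidneys (−1.07 ± 0.28), and Ube2g2, a ubiquitin-conjugating enzyme, was higher in PBS-cKOt kidneys (0.32 ± 0.07). With STZ, 0 of the 17 were called in control mice, and 0 were higher and 1 lower in cKOt mice.

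Of 28 further ATF4 and integrated stress response genes, 25 were tested, and 10 were higher and 1 lower in STZ-control than in PBS-control kidneys. In cKOt mice 1 was higher and 0 lower with STZ. DESeq2 called 10 higher in control and 2 in cKOt mice, and limma voom 9 and 5. Of all the genes they tested, DESeq2 called 5.65% and 6.02% higher, and limma voom 5.94% and 8.27%. The interaction was called for 0 of the 25 by edgeR, DESeq2 and limma voom, so the genotypes were not shown to differ in these genes. At an unadjusted p under 0.05, 1 was positive and 3 were negative, where 1944 of all 15637 tested genes passed in either direction. The stress cytokine gene Gdf15 had a log2 fold change of 1.37 ± 0.21 in control mice and 0.64 ± 0.21 in cKOt mice. Atf3, a repressor induced by stress, had 1.00 ± 0.22 and the proline synthesis gene Aldh18a1 0.49 ± 0.11 in control mice. With the deletion, 3 were higher and 1 lower in PBS mice and 4 higher and 4 lower in STZ mice. The cysteine synthesis gene Cth was higher in both (0.23 ± 0.05 and 0.31 ± 0.05), as was the transcription factor gene Cebpb (0.71 ± 0.15 and 0.51 ± 0.15), whereas the amino acid transporter gene Slc7a5 was lower in STZ mice (−0.46 ± 0.12).

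Of 31 further cytosolic chaperones and HSF1 targets, 1 was higher and 4 lower with the deletion in PBS mice, and 1 was higher and 6 lower in STZ mice. The HSP70-family gene Hspa2 was the higher one in both (0.69 ± 0.11 and 0.66 ± 0.11). The cochaperone gene Dnaja4 (−0.31 ± 0.06 and −0.26 ± 0.06) and the collagen chaperone gene Serpinh1 (−0.24 ± 0.07 and −0.31 ± 0.07) were lower in both. Ahsa1, which activates the HSP90 ATPase, was lower in STZ-cKOt than in STZ-control kidneys (−0.33 ± 0.05) and than in PBS-cKOt kidneys (−0.21 ± 0.05). With STZ, 0 were higher and 1 lower in control mice, and 0 were higher and 4 lower in cKOt mice. Of 10 further mitochondrial chaperones and proteases, 3 were higher and 1 lower with the deletion in PBS mice and 2 higher and 0 lower in STZ mice. The unfoldase gene Clpx had the largest difference (1.38 ± 0.08 and 1.39 ± 0.08), while Hspa9, the mitochondrial HSP70 gene, was lower in PBS-cKOt kidneys (−0.19 ± 0.05). With STZ, 1 of the 10 was lower in control mice and 1 higher in cKOt mice.

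Markers of other cell types moved in the same comparisons. Of 6 macrophage markers 2 were lower in PBS-cKOt than in PBS-control kidneys and 4 in STZ-cKOt than in STZ-control kidneys, and 2 were higher in STZ-control than in PBS-control kidneys. Their summed level had a median of 178 CPM (165 to 203) in STZ-cKOt, 259.7 (195 to 350.5) in STZ-control, 191 (149.5 to 204) in PBS-cKOt and 236 (189 to 267) in PBS-control kidneys. Of 12 proximal tubule markers 4 were lower with the deletion in PBS mice and 7 in STZ mice, and 4 and 6 were lower with STZ in control and in cKOt mice. Their summed level had a median of 32260 CPM (25190 to 37620) in STZ-cKOt, 39980 (27310 to 57580) in STZ-control, 43710 (37470 to 61610) in PBS-cKOt and 47830 (40650 to 58310) in PBS-control kidneys.

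Plasma cells, which express ER chaperones at high levels, were followed by 6 markers, of which 5 were tested. With the deletion 2 were lower in PBS mice and 2 in STZ mice, the summed medians being 177 CPM (99.7 to 253) in STZ-cKOt, 151 (62.0 to 640.4) in STZ-control, 128 (83.5 to 185) in PBS-cKOt and 227 (82.2 to 396) in PBS-control kidneys. Derl3 is counted both among these markers and among the degradation genes. Of 6 fibroblast and mural markers 3 were lower with the deletion in PBS mice and 1 in STZ mice, and 2 were higher with STZ in each genotype. Their summed medians were 179 CPM (155 to 209.8) in STZ-cKOt, 213 (175 to 249.5) in STZ-control, 149 (112 to 167) in PBS-cKOt and 177 (136 to 224) in PBS-control kidneys. Of 6 markers of injured tubule 4 were higher with STZ in each genotype, with summed medians of 957 CPM (713 to 1226) in STZ-cKOt, 869 (674 to 1014) in STZ-control, 593 (449 to 863) in PBS-cKOt and 541 (480 to 692.5) in PBS-control kidneys. With the deletion 1 of these was higher and 2 lower in PBS mice, and 1 was lower in STZ mice. Adipocyte markers, 5 of 6 tested, had 4 lower with STZ in control mice. Their summed medians were 58.5 CPM (49.9 to 73.4) in STZ-cKOt, 48.9 (40.5 to 68.3) in STZ-control, 47.4 (31.6 to 113.5) in PBS-cKOt and 65.0 (44.1 to 304) in PBS-control kidneys. The remaining lists were of thick ascending limb and distal tubule, collecting duct, podocyte and endothelium. In each, at most 2 markers were called in a direction in any comparison. All 5 podocyte markers were higher with STZ in cKOt mice (median log2 fold change 0.336, 1 called) and in control mice (0.123, 0 called). Podocyte summed medians were 295 CPM (245 to 365) in STZ-cKOt, against 254 (141 to 316) in PBS-cKOt kidneys. All 6 endothelial markers were lower with the deletion in PBS mice (median log2 fold change −0.325, 1 called). In STZ mice 3 of the 6 were lower. With STZ in cKOt mice all 6 were higher (median 0.235, 2 called). Summed medians were 364.9 CPM (218.6 to 379.5) in PBS-control, against 259.9 (149 to 354) in PBS-cKOt kidneys. In the first list Umod was called lower and Calb1 higher with the deletion in STZ mice (−0.763 and 0.377). The same held with STZ in cKOt mice (−0.614 and 0.838). None of the markers of any list was at 0 in all libraries. The part of these cell types in the differences of the members was not tested.

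**Figure D5:**
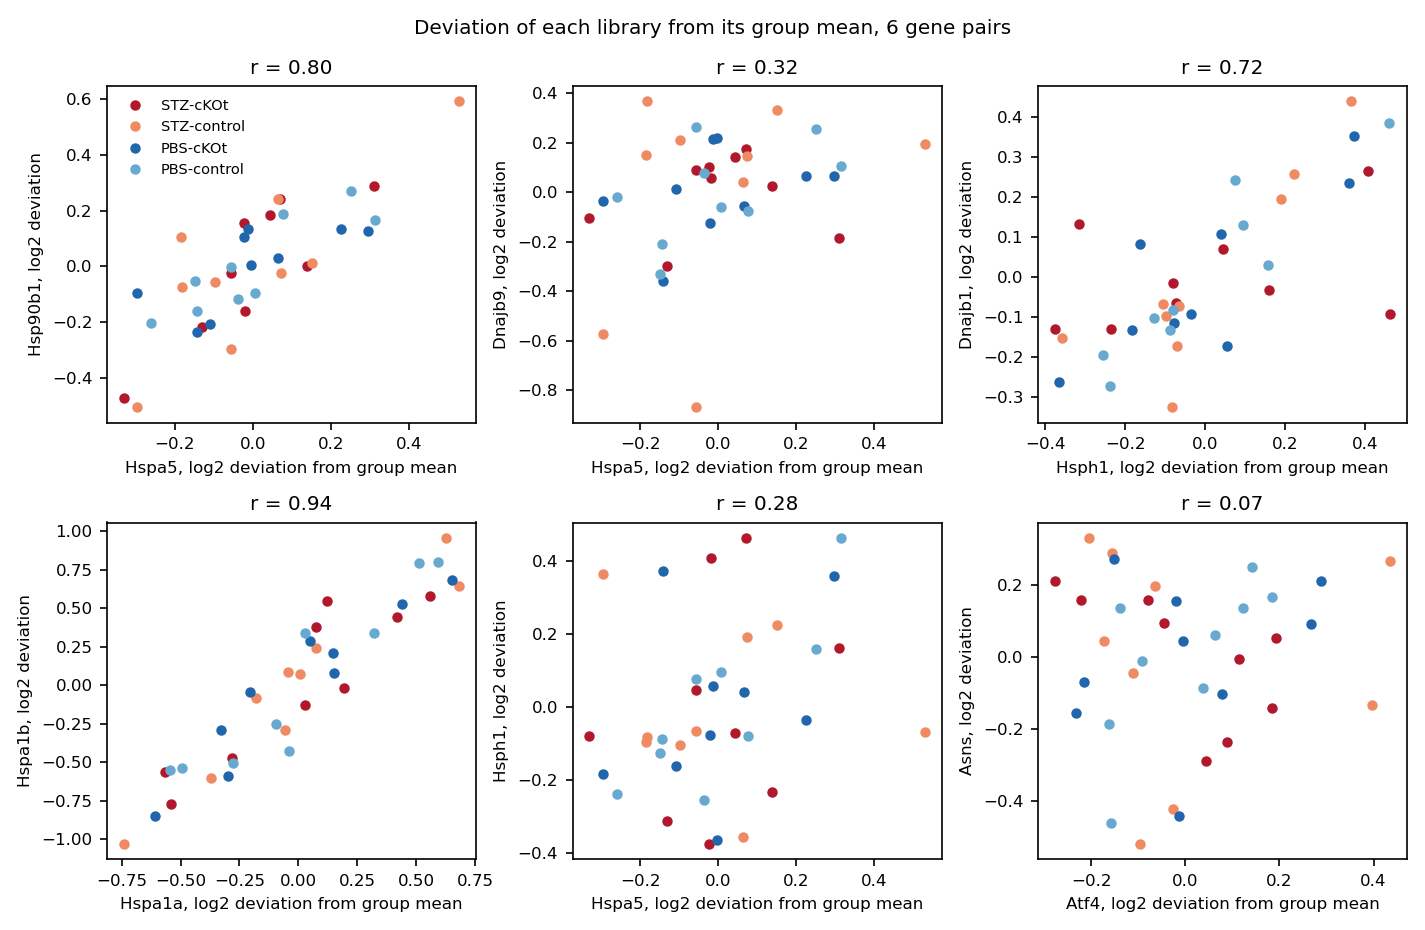
Deviation of each of the 36 libraries from its group mean in log2(CPM + 0.5) for 6 gene pairs, with colours by group and Pearson's r above each panel. Points of Hspa5 with Hsp90b1, of Hsph1 with Dnajb1 and of Hspa1a with Hspa1b lie along a rising line (r of 0.80, 0.72 and 0.94), and those of Atf4 with Asns do not (0.07).

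Whether members vary together between mice of the same group was examined in 6 pairs, over 36 libraries after removal of the group means. Tests were two-sided permutation tests within groups, adjusted over the 6 pairs. The ER pair Hspa5 and Hsp90b1 varied together (Pearson r = 0.799, Spearman rho = 0.765, adjusted p = 2e-05 for both), and r was 0.735 without the 2 libraries farthest from the median of Hspa5. The cytosolic pair Hsph1 and Dnajb1 did so as well (r = 0.72, rho = 0.688, adjusted p = 2e-05 for both), with r = 0.773 without the 2 farthest libraries. The inducible pair Hspa1a and Hspa1b had r = 0.939 and rho = 0.939 (adjusted p = 2e-05 for both; r = 0.932 without the 2 farthest), and these genes share most of their sequence. The raw p of 1e-05 behind each of these is the smallest that the permutations can give.

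The other 3 pairs showed weaker relations. Hspa5 and Dnajb9 had r = 0.324 and rho = 0.33 (adjusted p = 0.135 and 0.0728; r = 0.289 without the 2 farthest). Across compartments, Hspa5 and Hsph1 had r = 0.277 (adjusted p = 0.135) and rho = 0.377 (adjusted p = 0.0434; r = 0.262 without the 2 farthest), so that rho alone passed. Without the 2 farthest libraries rho was 0.311 (adjusted p = 0.12) and no longer passed. The factor gene Atf4 and its target Asns had r = 0.066 and rho = 0.01 (adjusted p = 0.743 and 0.96; r = 0.016 without the 2 farthest). All points of a pair share their library, and with it RNA quality and depth.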

How the data were processed

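The deposited files hold, per library, raw counts of reads per gene as the authors made them. Tools listed in the submitters' processing notes are cutadapt 1.8, STAR 2.5.3a and HTSeq 0.9.1, with the genome GRCm38. The strand setting and the annotation are not given in the sources used here. Groups came from the sample titles. Symbols and coordinates came from GENCODE M21. Per library, 30.9% to 42.8% of reads mapped to more than 1 place, 3.64% to 6.38% lay in no gene and 0.582% to 0.738% in more than 1 gene; none of these entered library sizes.

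The test was that of edgeR 4.0.16 under R 4.3.3 (filterByExpr, TMM, 1 mean per group over 36 libraries, 32 residual degrees of freedom, quasi-likelihood F test). Benjamini-Hochberg adjustment ran over 15637 genes per comparison, with a threshold of 0.05. Fold changes are log2 of the first-named over the second group, and SE is the log2 fold change divided by the square root of F. CPM use TMM library sizes. Alternatives were DESeq2 1.42.0 (Wald test, or its size factors in edgeR), limma 3.58.1 voom with quality weights, other filters, a replicate block, a fit to 2 groups, and libraries left out. The gene fit was checked on simulated counts. Correlations used 1e+05 permutations. Members and lists were chosen with earlier results of these data known. Values by library are given for 11 members in every group and for up to 8 called members per comparison, by smallest adjusted p, and of each other list up to 4 genes may be named. The animals are separate mice, so the edgeR test sets each group difference against the spread between mice.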

Additional observations from a re-analysis of the deposited data

Results flagged for a closer look

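In each of 168 combinations of member and group, the highest or lowest library was compared with the rest by Dixon's criterion for 9 values, and 15 were flagged in 9 libraries; chance flags about 1 in 20 groups. The library labelled STZ-control 2 was the highest of its group for Hspa5 (499.6 CPM, next 384), Sdf2l1 (11.9, next 5.41), Creld2 (31.6, next 24.1) and Hsp90aa1 (201, next 121.5). It is also the library whose Arntl count goes against its label, although its first principal component (−11.7) and its Hspb8 level (15.4 CPM, against at most 5.33 in cKOt libraries) lie with the controls. Its Herpud1 level (209 CPM) lay within the range of STZ-cKOt libraries (159 to 243). PBS-control 5 was the highest of its group for Manf (48.7 CPM, next 37.8), Creld2 (28.1, next 22.6) and Ddit3 (12.8, next 9.204). PBS-cKOt 1, which stood apart on the second principal component, was the highest for Pdia6 (163 CPM, next 145) and Hspe1 (137.7, next 96.2), and STZ-control 7, another of those libraries, for Xbp1 (239, next 146). Single flags fell on Eif2ak3 in STZ-cKOt 9 (55.7 CPM, next 46.9) and Dnaja1 in STZ-cKOt 1 (159, next 137). Among PBS-control libraries, Hspd1 was high in number 1 (715 CPM, next 594), Pdia6 low in number 7 (118.5, next 132) and Eif2ak3 low in number 3 (35.8, next 40.8). The causes were not tested.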

How the results depend on the processing

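Across 9 alternative settings, 1791 fold changes of members kept their side of the threshold, 26 passed it newly and 21 no longer passed. With a call at stake, 0 changed direction. Uncalled fold changes among the 1791 could change sign, as that of Hsp90b1 between STZ-control and PBS-control did (−0.128 to 0.072 over the settings). Of the 31 calls of members, 23 were kept in every setting and 8 were lost in at least 1. The count of members higher with STZ in cKOt mice was 1, and 2 with limma voom and 3 without the 4 libraries apart on the second component. It was 0 with a filter at a mean of 1 CPM, which removes Trib3. Of all tested genes, 8.27% were called higher there with limma voom, 5.92% without the 4 libraries and 6.21% with that filter. Members lower there numbered 4, and 2 with no filter, where 2.03% of all tested genes were called lower. Without group means removed, r was 0.413 for Hspa5 with Dnajb9 and 0.514 for Hspa5 with Hsph1, both then past the threshold. Without the 4 libraries r was 0.455 for Hspa5 with Hsph1, now past it, and −0.102 for Atf4 with Asns, of opposite sign; the cause was not tested. Replicate numbers showed no clear pairing of the mice, though correlations of this kind cannot exclude one. Over 54 same-numbered pairs of libraries of different groups, deviations correlated at −0.305 to 0.465 (median 0.0153), with 18 pairs over 0.1. The median over pairs with other numbers was 0.000614, and 6 of 36 libraries correlated best with their own number. With the replicate block 0 members were higher and 9 lower in cKOt in PBS mice and 0 and 12 in STZ mice. With STZ 4 were higher and 4 lower in control mice and 1 and 4 in cKOt mice. Of all tested genes, the block gave 11.1% higher and 12.8% lower in cKOt in PBS mice, and 9.75% and 10.3% in STZ mice. With STZ it gave 6.50% and 6.54% in control mice and 6.38% and 5.86% in cKOt mice. Trib3 and Chac1, at a mean of about 1 CPM or less, are the members most limited by depth.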
